A study of Saccharomyces cerevisiae with 28 samples.

Results

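Genes for sequence-specific DNA-binding transcription factors were followed in 8 deletion strains of budding yeast (Saccharomyces cerevisiae). The set was a list of 59 factor genes, of which the platform annotation named a probe for 36, out of 982 genes with a named probe in all. Each of the 36 had 1 probe. The list held a set subgroup of 11 genes for basic leucine zipper (bZIP) factors, called the bZIP genes below. Such factors hold DNA with a basic region next to a coiled dimerisation segment. Of the 11, 8 had a probe: YAP1, YAP3, YAP6, ACA1, CIN5, CAD1, SKO1 and GCN4. MET4 also encodes a bZIP factor, but it was outside this subgroup and was counted with the other members. The 23 listed genes not analysed here for want of a named probe were YAP5, YAP7, CST6, MIG1, MIG2, CBF1, FKH1, FKH2, MSN2, MSN4, HSF1, GZF3, HAP3, HAP4, LEU3, MET31, PDR3, RGT1, RTG3, SKN7, XBP1, ZAP1 and INO4. The rule that picked the members used no measured value.

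Each strain was labelled as lacking 1 non-essential gene with a possible link to RNA splicing, and the arrays were built to read splicing as well as transcript levels. Log-phase cultures at 30 °C were taken from the csn12, YPR045C, ist3, isy1, csn9 and pci8 mutants. The tgs1 and ynr004w mutants were sampled at 30 °C (0 min) and 10, 25 and 40 min after transfer to 16 °C. Each mutant RNA was hybridised together with wild-type RNA of the same condition, on 2 arrays with the dyes exchanged, which gave 14 conditions and 28 arrays. Beyond the deleted gene, the sources used here give no genotype, strain background or number of clones.

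Transcription factors of this kind bind short DNA sequences upstream of genes and raise or lower their transcription. Many yeast factors act through nutrient and stress pathways in which the protein is controlled by its localisation, degradation or translation, so the level of the mRNA is only 1 of the points of control. GCN4 is the standard case of translational control: its mRNA carries short upstream reading frames, and its protein switches on amino acid biosynthesis genes when amino acids run short. The AP-1-like YAP factors answer oxidative, metal and osmotic stress.

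The values below are log2 ratios, read as mutant over wild type, so that a value above 0 means more of the transcript in the mutant. The sources used here state neither the base of the logarithm nor the direction. The direction is likely, because channel 1 held the mutant on all arrays. The deleted genes do not check it: IST3 was at 0.16 in ist3, ISY1 at -0.12 in isy1 and TGS1 at -0.10 in tgs1 at 30 °C and -0.28 at 16 °C, and the other deleted genes had no named probe. None of the 3 measured genes showed a loss on the arrays labelled with its deletion. A bright probe within the deleted part should show one, so the strain labels are not borne out here. Where the probes lie and how bright they were is not known, and the cause was not tested. Strain names below are those of the labels, and every direction drawn from the ist3, isy1 and tgs1 arrays rests on them. Between 8893 and 9199 of 9216 spots had a value on an array. The 6 spots of a member's probe had a median SD of 0.152, against 0.157 over all probes. Whether the 2 arrays of a condition came from separate cultures is not given, so the errors below may be technical.

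The 2 arrays of a condition often differed in factor genes, and this sets how firmly each value can be read. The mean of the arrays with the mutant in Cy5 and the mean of those with it in Cy3 correlated across genes at r = -0.68, a description over genes that share the same spots and dyes. In a single condition, between 4 (ynr004w at 10 min) and 19 (csn9) of the 36 members had the same sign on both arrays. DAL80, a GATA-type repressor of nitrogen catabolic genes, averaged 0.70 on the first arrays and -0.75 on the second. REB1, a general factor that keeps promoters free of nucleosomes, averaged 0.58 and -0.63. In these genes the sign of a single array went with the dye orientation in all 14 conditions.

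**Figure D1:**
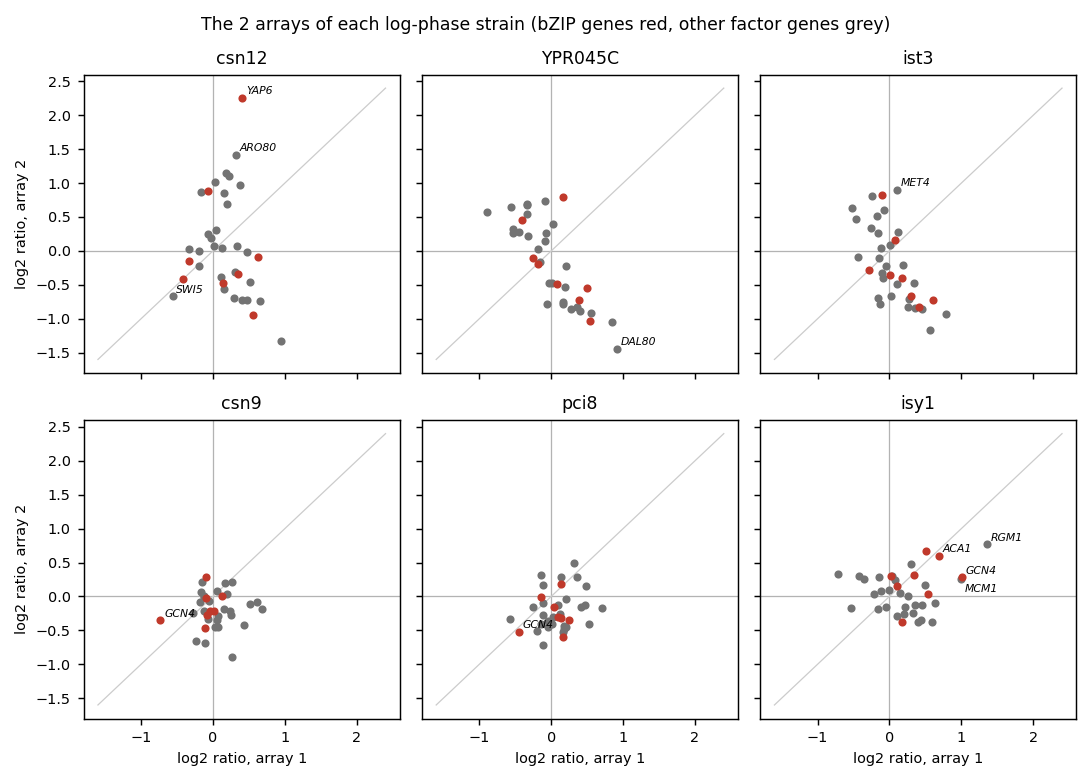
Each point is 1 factor gene in 1 log-phase strain, with the log2 ratio of array 1 (mutant in Cy5) on the horizontal and of array 2 (mutant in Cy3) on the vertical axis, bZIP genes in red and other factor genes in grey. RGM1, ACA1, GCN4 and MCM1 in isy1 and YAP6 and ARO80 in csn12 were above 0 on both arrays, while DAL80 in YPR045C was at 0.91 and -1.44.

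Because of this, each strain was tested against wild type with limma in 3 ways, always over all genes. The first fit used the mean of each pair, in which the dye effect cancels; its spread came from the 16 °C time points, and strains with 1 pair were assumed to vary like them. The second used the 28 single arrays with 1 dye term for all of them. The third, added after the data were seen, used the single arrays with a dye term for each of the 4 run codes in the array names. A gene is said to be higher or lower where its Benjamini-Hochberg adjusted p was under 0.05 in the fit to pair means, and ± marks the SE of that fit. Its median SE was 0.06 for a single pair and 0.04 for a strain at 16 °C, against 0.14 and 0.08 with 1 dye term and 0.09 and 0.05 with a dye term for each run code.

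In the fit to pair means, 119 of the 360 tests of a member against wild type passed. Of these, 57 had 1 sign on every array, 46 also passed with a dye term for each run code, and 7 passed in all 3 fits. The 7 were YAP6, ARO80 and AFT1 in csn12 and RGM1, ACA1, GCN4 and MCM1 in isy1. Each of the 7 was higher in the mutant. REB1 was the 1 member that passed in no strain by the fit to pair means, and the other 35 passed at least once. Many genes outside the list passed too. By the pair means the share of all genes ran from 5.80% (tgs1 and ynr004w at 30 °C) to 56.1% (ist3). With 1 dye term it ran from 0.305% (csn9) to 9.88% (tgs1 at 16 °C). The counts of members are to be read beside these shares, given for each strain below. Over the 14 pair means the median SD of a member was 0.15, against 0.14 for all genes.

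**Figure D2:**
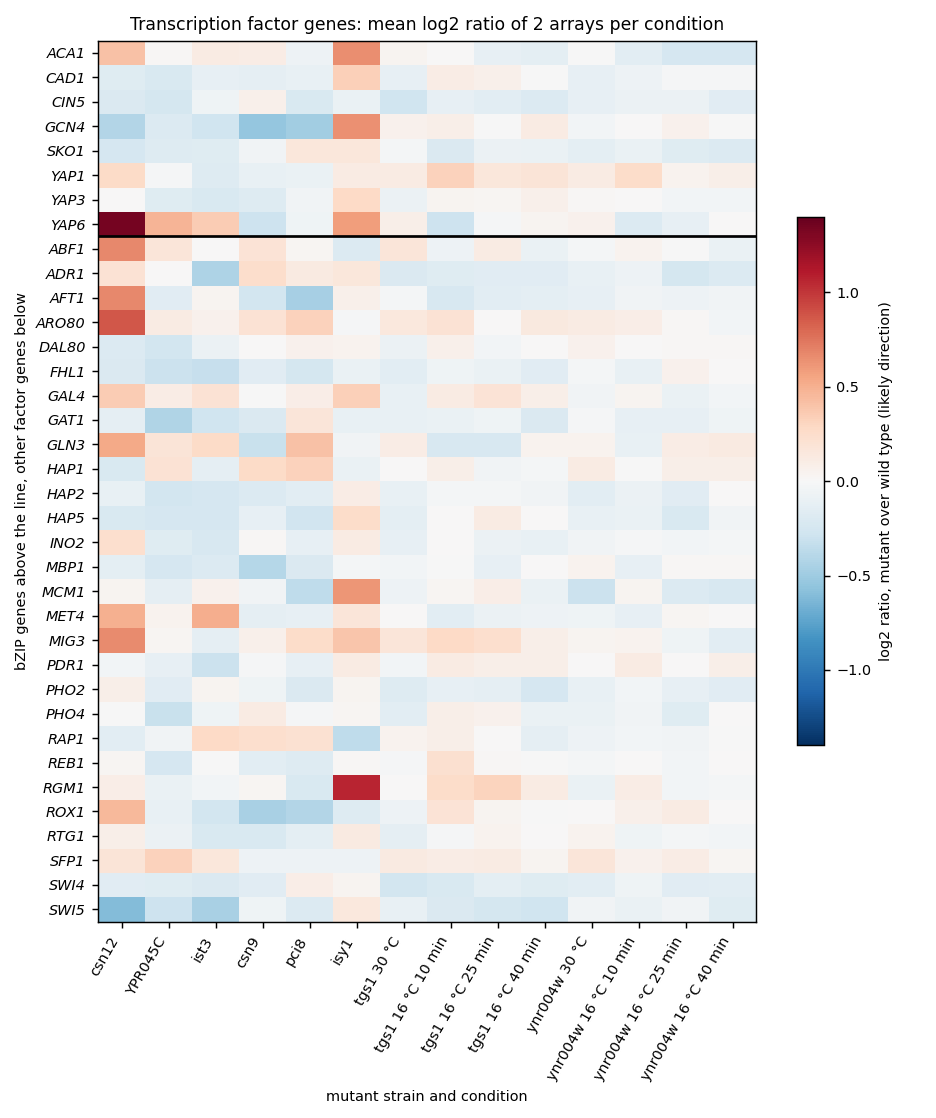
Mean log2 ratio of the 2 arrays for each of the 36 factor genes (vertical axis) in each of the 14 conditions (horizontal axis), with the 8 bZIP genes above the line. The strongest colours are YAP6 at 1.34 in csn12 and RGM1 at 1.07 in isy1, and the tgs1 and ynr004w columns are pale.

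In csn12, YAP6 and ARO80 stood highest among the factor genes. YAP6, an AP-1-like bZIP factor, was at 0.41 on array 1 and 2.26 on array 2, with a mean of 1.34 ± 0.10 (2 arrays), or 2.52-fold. Both arrays were above 0, but they lay far apart. Its adjusted p was 2.84e-05 in the fit to pair means, 0.006 with 1 dye term and 0.000106 with a dye term for each run code. Array 2 carried most of the size: after correction by the mean dye effect of the other pairs, YAP6 was at 2.14 from array 2 alone and at 0.53 from array 1 alone. In the 5 other log-phase strains YAP6 was between -0.29 (csn9) and 0.59 (isy1).

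ARO80, the activator of genes that break down aromatic amino acids, read 0.32 and 1.42 in csn12, a mean of 0.87 ± 0.07 and 1.82-fold (adjusted p = 3.45e-05, 0.0219 and 1.11e-05 in the 3 fits, in the order above). Here too both arrays were above 0 and array 2 was the higher. AFT1, the activator of the iron uptake genes, read 0.18 and 1.15, a mean of 0.67 ± 0.05 and 1.59-fold (adjusted p = 3.45e-05, 0.0248 and 0.000757). AFT1 was below 0 on array 1 and above 0 on array 2 in YPR045C (-0.90 and 0.57), in ist3 (-0.26 and 0.34) and in isy1 (-0.15 and 0.28), so that csn12 was the 1 log-phase strain with both arrays above 0.

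By the fit to pair means, 23 of 36 members differed from wild type in csn12, 14 higher and 9 lower, against 37.0% of all genes (18.1% higher and 18.8% lower). With 1 dye term the count was 3 (4.68% of all genes) and with a dye term for each run code 11 (19.5%). Among those that passed the first and the last of these fits, ABF1, a general regulatory factor, was higher at 0.67 ± 0.08, and so was MIG3, a zinc finger repressor related to MIG1, at 0.66 ± 0.08. GLN3, a GATA-type activator of nitrogen catabolic genes, was at 0.53 ± 0.10. MET4, the activator of sulphur amino acid synthesis, was at 0.50 ± 0.06, and ROX1, the repressor of hypoxic genes, at 0.45 ± 0.07. ACA1, an ATF/CREB-type bZIP factor, was also higher at 0.41, although its arrays disagreed in sign (-0.07 and 0.88).

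On the lower side in csn12, SWI5, an activator of genes at the start of G1, was at -0.56 and -0.67, a mean of -0.61 ± 0.06. The 2 arrays differed little. GCN4 was at -0.41 on both arrays, a mean of -0.41 ± 0.06. SKO1, the bZIP factor of the osmotic stress pathway, was at -0.24 and HAP1, the haem-responsive activator, at -0.21; these 2 passed only with the pair means. The mating pheromone genes MFA1 and MFA2, made by a cells, were also lower in csn12 (-1.13 and -0.73), and MATALPHA1, a regulator of alpha cells, was higher at 1.06, while MF(ALPHA)1, MF(ALPHA)2 and STE3 were between -0.29 and 0.07. The part of these differences in the factor genes was not tested.

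On the arrays labelled isy1, RGM1, GCN4, ACA1 and MCM1 were higher in every fit. RGM1, which encodes a zinc finger protein thought to repress transcription, was at 1.36 and 0.77, a mean of 1.07 ± 0.08 and 2.09-fold. It had the smallest adjusted p of any member against wild type, at 3.66e-06, 3.37e-05 and 1.26e-07 in the 3 fits. In the 5 other log-phase strains its mean was between -0.21 (pci8) and 0.09 (csn12). Isy1 is a component of the complex that associates with Prp19 in the active spliceosome.

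ACA1 read 0.69 and 0.60 in isy1, the closest arrays among the 7, with a mean of 0.65 ± 0.07 (1.56-fold; adjusted p = 4.68e-05, 0.00832 and 0.00113). GCN4 read 1.01 and 0.28, a mean of 0.64 ± 0.06 (1.56-fold; adjusted p = 2.98e-05, 0.00346 and 1.15e-05). MCM1, the MADS-box factor shared by mating-type and cell cycle genes, read 1.0 and 0.25, a mean of 0.62 ± 0.09 (1.54-fold; adjusted p = 0.000408, 0.0416 and 0.000227). For GCN4 and MCM1 the arrays were far apart, and the value from 1 array alone, corrected for the mean dye effect, moved from 0.37 to 0.92 for GCN4 and from 0.30 to 0.95 for MCM1. For RGM1 the same range was 0.67 to 1.47, and for ACA1 0.38 to 0.91.

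**Figure D3:**
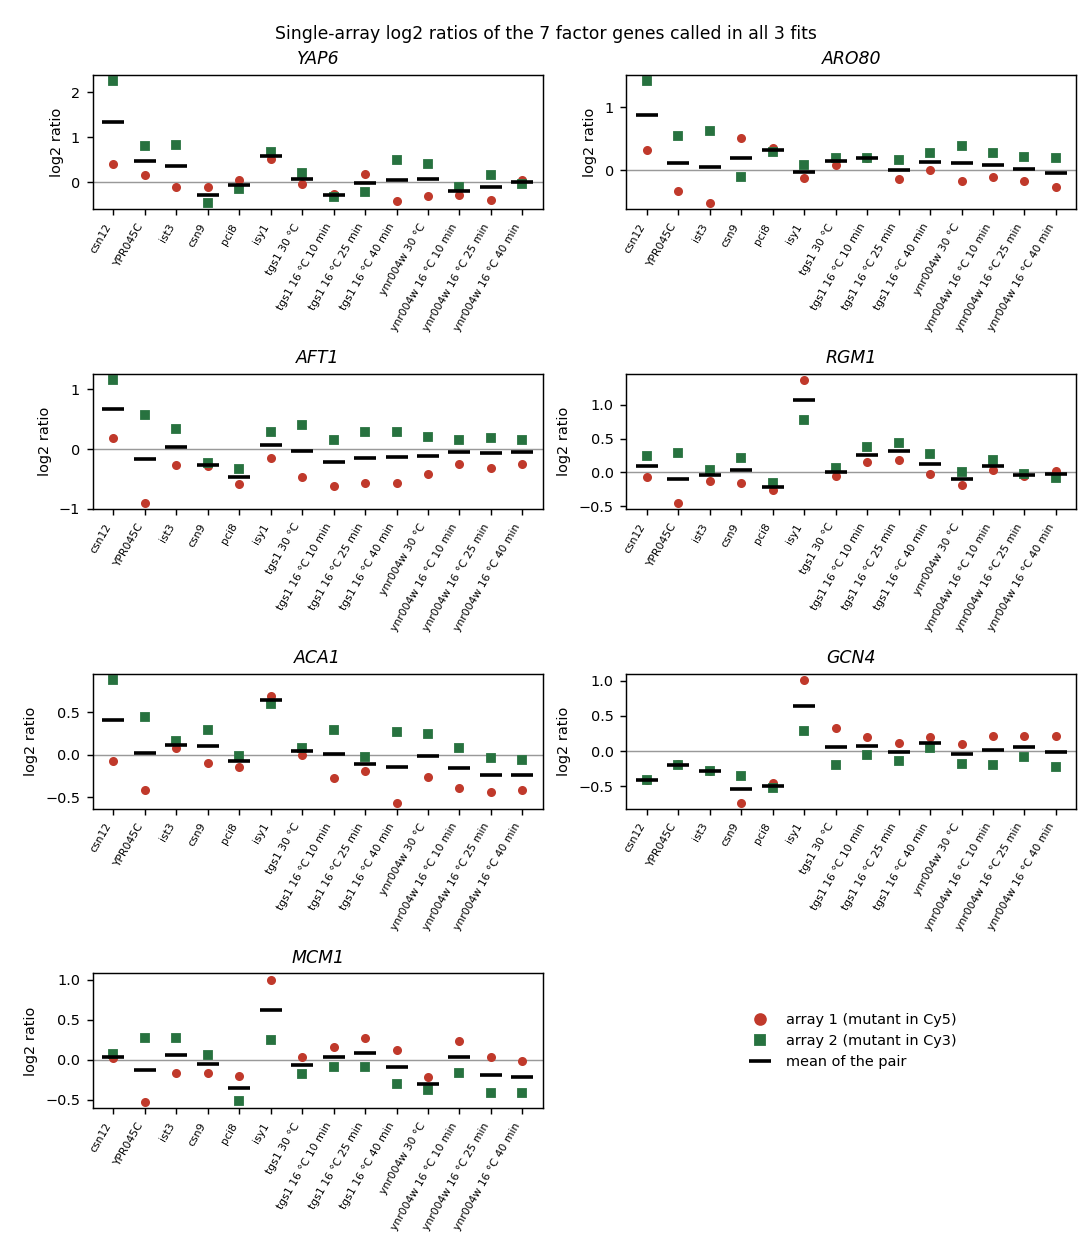
Log2 ratio on each single array (vertical axis) in the 14 conditions (horizontal axis) for the 7 factor genes that passed in all 3 fits. In isy1, RGM1 was at 1.36 and 0.77 with every other array of RGM1 between -0.45 and 0.44, and YAP6 in csn12 was at 0.41 and 2.26.

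Counted over all members, 11 of 36 differed from wild type in isy1, 10 higher and 1 lower, against 42.2% of all genes (20.6% higher and 21.6% lower). With 1 dye term the count was 4 (9.57%), and with a dye term for each run code 9 (26.6%). The members' share was thus below that of all genes in the first fit. The 1 lower member was RAP1, the general factor of ribosomal protein genes and telomeres, at -0.35 ± 0.07. The isy1 arrays were the only ones with their run code, so a property of that run cannot be told apart from the strain. Of the mating-type markers, MFA2 was at 0.63 and MATALPHA1 at 0.34 in isy1, both higher, and the 4 others were between -0.06 and 0.34 and did not pass.

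The bZIP genes gave 5 of the 10 higher members in isy1. ACA1, GCN4, YAP6 (0.59 ± 0.10), CAD1 (0.33 ± 0.06) and YAP3 (0.28 ± 0.05) were higher and none of the 8 was lower. CAD1 is the YAP factor best known for cadmium resistance. Higher calls made up 20.6% of all genes in that fit, and the median log2 ratio was 0.31 for the bZIP genes against -0.01 for all genes. The same 5 passed with a dye term for each run code (13.6% of all genes higher), and GCN4 and ACA1 passed with 1 dye term (6.21%). YAP1, CIN5 and SKO1 did not pass in isy1. Outside the list, 2 further bZIP genes had a probe and both were higher in isy1 in all 3 fits: HAC1, the factor of the unfolded protein response, at 0.50 ± 0.06, and MET28, a cofactor of MET4, at 0.55 ± 0.08. MET4 itself, a bZIP factor gene among the other members, was at 0.17 in isy1 and did not pass.

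In the other log-phase strains the counts of bZIP genes depended on the fit. By the pair means 3 of the 8 were higher and 4 lower in csn12 (37.0% of all genes called), 1 higher and 3 lower in YPR045C (20.0%) and in ist3 (56.1%), and 0 higher and 2 lower in csn9 (21.7%) and in pci8 (32.0%). With a dye term for each run code 2 were higher and 1 lower in csn12 (19.5%), none passed in YPR045C (5.60%), and 1 was lower in each of ist3 (39.2%), csn9 (10.7%) and pci8 (14.4%). The median range over the 6 log-phase strains was 0.52 for the bZIP genes, 0.53 for all 36 members and 0.46 for all genes.

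GCN4 had the widest range over the log-phase strains of the 8 bZIP genes after YAP6. Outside isy1 it was below 0 on both arrays of all 5 other log-phase strains: -0.73 and -0.35 in csn9, -0.45 and -0.52 in pci8, -0.41 and -0.41 in csn12, -0.28 and -0.28 in ist3, and -0.18 and -0.19 in YPR045C. It passed as lower in csn9 (-0.54 ± 0.06), pci8 (-0.49 ± 0.06), csn12 and ist3 (-0.28 ± 0.06) by the pair means and with a dye term for each run code, but in none of them with 1 dye term, where the adjusted p was 0.0699, 0.0959, 0.115 and 0.195. In YPR045C it did not pass (adjusted p = 0.057 by the pair means). At 30 °C it was at 0.06 in tgs1 and -0.04 in ynr004w, and at 16 °C at 0.06 and 0.02. Set against the mean of the 5 other log-phase strains, GCN4 in isy1 was 1.02 higher (adjusted p = 1.85e-06, 8.41e-05 and 9.74e-08 in the 3 fits).

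Of 28 listed target genes of Gcn4 in amino acid synthesis, 2 had a probe, and both were higher in isy1. HIS4, which encodes a histidine synthesis enzyme, was at 0.87 ± 0.17 (adjusted p = 0.00284, with 0.00176 with 1 dye term), and HIS5 at 0.34 ± 0.10 (adjusted p = 0.0221; 0.107 with 1 dye term). In csn9, pci8, csn12, ist3 and YPR045C neither passed, with HIS4 between -0.04 and 0.27 and HIS5 between -0.11 and 0.07. In tgs1 GCN4 itself did not pass. There the 2 targets were at -0.53 and -0.21 at 30 °C and at -0.20 and -0.09 at 16 °C. By the pair means 0 passed at 30 °C and 1 was lower at 16 °C. With a dye term for each run code 1 was lower at each temperature, and with 1 dye term 0 passed. In ynr004w 0 passed in any fit.

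In csn9 and pci8, which lack subunits linked to the COP9 signalosome, ROX1 and GCN4 were lower. ROX1 was at -0.24 and -0.66 in csn9, a mean of -0.45 ± 0.07, and at -0.11 and -0.72 in pci8, a mean of -0.41 ± 0.07. All 4 arrays were below 0. MBP1, the DNA-binding subunit of the G1/S factor MBF, was lower in csn9 at -0.40 ± 0.07. AFT1 was lower in pci8 at -0.46 ± 0.05, MCM1 at -0.35 ± 0.09 and HAP5, a subunit of the CCAAT-binding complex, at -0.27 ± 0.07. ARO80 and HAP1 were higher in pci8, both at 0.32, with an SE of 0.07 and 0.06. Each of these also passed with a dye term for each run code and none with 1 dye term.

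In all, 10 of 36 members passed in csn9, 3 higher and 7 lower, and 15 in pci8, 5 higher and 10 lower. Of all genes, 21.7% passed in csn9 (10.6% higher and 11.1% lower) and 32.0% in pci8 (16.5% and 15.5%). With 1 dye term limma gave 0 in csn9 (0.305%) and 0 in pci8 (1.02%), with an unadjusted p under 0.05 in 3 members of each, and with a dye term for each run code 3 (10.7%) and 7 (14.4%). These 2 strains share a run code. Set against each other, they differed by the pair means in GLN3 alone, with csn9 at -0.72 relative to pci8 (adjusted p = 0.0302), and this did not pass with a dye term for each run code (0.251).

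On the arrays labelled ist3, MET4 was higher and SWI5, ADR1 and GCN4 were lower. MET4 was at 0.51 ± 0.06, close to its value in csn12. ADR1, the activator of genes repressed by glucose, was at -0.43 ± 0.07, and SWI5 was at -0.13 and -0.78, a mean of -0.45 ± 0.06. HAP2 was at -0.24 ± 0.06, and HAP5, whose product joins it in the CCAAT-binding complex, was also at -0.24 but with arrays of opposite sign. FHL1, a factor of ribosomal protein genes (-0.32), PDR1, the regulator of drug efflux pumps (-0.30), and GAT1, a GATA-type activator (-0.28), were lower with arrays of opposite sign. These 9 passed with a dye term for each run code as well.

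Counted over the set, 21 of 36 members differed in ist3, 6 higher and 15 lower, against 56.1% of all genes (26.9% higher and 29.2% lower). With 1 dye term limma gave 0 (8.04%; unadjusted p under 0.05 in 4), and with a dye term for each run code 9 (39.2%). In YPR045C, 14 of 36 passed, 3 higher and 11 lower, against 20.0% of all genes (9.06% higher and 10.9% lower). The count was 0 with 1 dye term (1.02%; unadjusted p under 0.05 in 3) and 1 with a dye term for each run code (5.60%). The 1 was GAT1, at -0.42 ± 0.06. HAP2, at -0.26 ± 0.06, YAP6, at 0.48 ± 0.10, and HAP1, at 0.20 ± 0.06, also had 1 sign on both arrays of YPR045C but passed only with the pair means. From 1 array alone, corrected for the mean dye effect, HAP2 there was at -0.52 or 0.01.

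The mating-type markers moved far more than the factor genes in these strains. All 4 alpha-cell genes were higher in YPR045C, between 2.72 and 4.85, and in ist3, between 1.91 and 5.24, and both measured a-cell genes were lower. In tgs1 and ynr004w the alpha-cell genes were lower and the a-cell genes higher. The sources used here do not state the strains' mating type, and its part in the values of the factor genes was not tested.

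**Figure D4:**
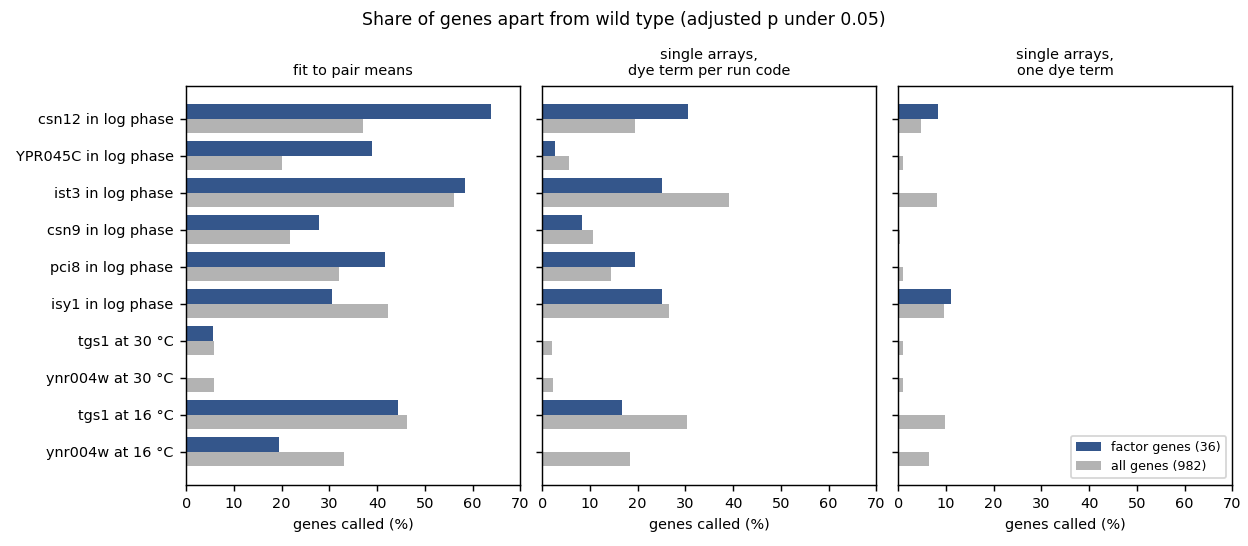
Share of genes (horizontal axis, %) whose adjusted p was under 0.05 in each comparison with wild type (vertical axis), for the factor genes and for all genes, in each of the 3 fits. By the pair means the factor genes are above all genes in every log-phase strain but isy1, as in csn12 (23 of 36 against 37.0%) and YPR045C (14 of 36 against 20.0%). In ist3 the gap is small (21 of 36 against 56.1%). In isy1 they are below all genes (11 of 36 against 42.2%), and with 1 dye term isy1 has 4 of 36 against 9.57%.

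In the cold, the differences from wild type in the factor genes were small on the arrays labelled tgs1 and ynr004w. In tgs1 at 16 °C, 16 of 36 passed by the pair means, 6 higher and 10 lower, against 46.3% of all genes (22.9% higher and 23.4% lower), and all 16 were within 0.24 of 0. SWI5 was at -0.25 and -0.15 at 10 min, -0.31 and -0.20 at 25 min and -0.47 and -0.08 at 40 min, a mean of -0.24 ± 0.03. PHO2, a homeobox factor of phosphate genes, was at -0.14 and -0.08, then -0.18 and -0.08, then -0.42 and -0.04, a mean of -0.16 ± 0.04. These were the only members with all 6 arrays of tgs1 at 16 °C on 1 side of 0 that passed.

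A further 4 members of tgs1 at 16 °C passed by the pair means and with a dye term for each run code, with arrays of both signs. RGM1 was at 0.23 and YAP1, the main oxidative stress factor, at 0.22. SWI4, the DNA-binding subunit of the G1/S factor SBF, was at -0.17, and ADR1 at -0.16. That fit called 6 members in all (30.3% of all genes), and limma with 1 dye term called 0 (9.88%; unadjusted p under 0.05 in 4).

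In ynr004w at 16 °C, 7 of 36 members passed, all lower. Of all genes 33.0% passed, 17.2% higher and 15.8% lower. In both other fits 0 members did (6.52% with 1 dye term and 18.3% with one for each run code), with an unadjusted p under 0.05 in 1 and 7. The lowest was ACA1, at -0.21, with arrays of both signs. At 30 °C, 2 members passed in tgs1, CIN5 at -0.28 and SWI4 at -0.26 (5.80% of all genes, 2.55% higher and 3.26% lower), each with arrays of opposite sign. With 1 dye term (0.916%) and with one for each run code (2.14%) limma called 0, with an unadjusted p under 0.05 in 0 and 2. In ynr004w at 30 °C limma called 0 members by the pair means, against 5.80% of all genes (2.34% higher and 3.46% lower), with the smallest adjusted p at 0.0829. The unadjusted p was under 0.05 for 4 members by the pair means, for 0 with 1 dye term and for 1 with one for each run code, and neither of these fits called any.

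No factor gene passed the test of the shift to 16 °C itself in either strain, in any of the 3 fits over all arrays. For tgs1 the difference between 16 °C and 30 °C ran from -0.22 (GLN3) to 0.23 (GAL4), with a smallest adjusted p of 0.152, and for ynr004w from -0.20 (ACA1) to 0.18 (MCM1), with 0.349. By limma on the pair means the unadjusted p was under 0.05 for 5 members in tgs1 and 1 in ynr004w, and no gene on the array passed in tgs1. This rests on both 30 °C arrays of tgs1: with array 1 left out 20 members passed, and with array 2 left out 4. Set against each other at 16 °C, tgs1 and ynr004w differed by limma in 0 members in each fit (0.509% of all genes by the pair means), although 7 had an unadjusted p under 0.05 by the pair means. That difference ran from -0.17 (GLN3) to 0.25 (MIG3). For the difference in the shift between the 2 strains no member passed (smallest adjusted p = 0.745; unadjusted p under 0.05 in 1). The wild type was moved to 16 °C too, so a response that both share cancels in these ratios.

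**Figure D5:**
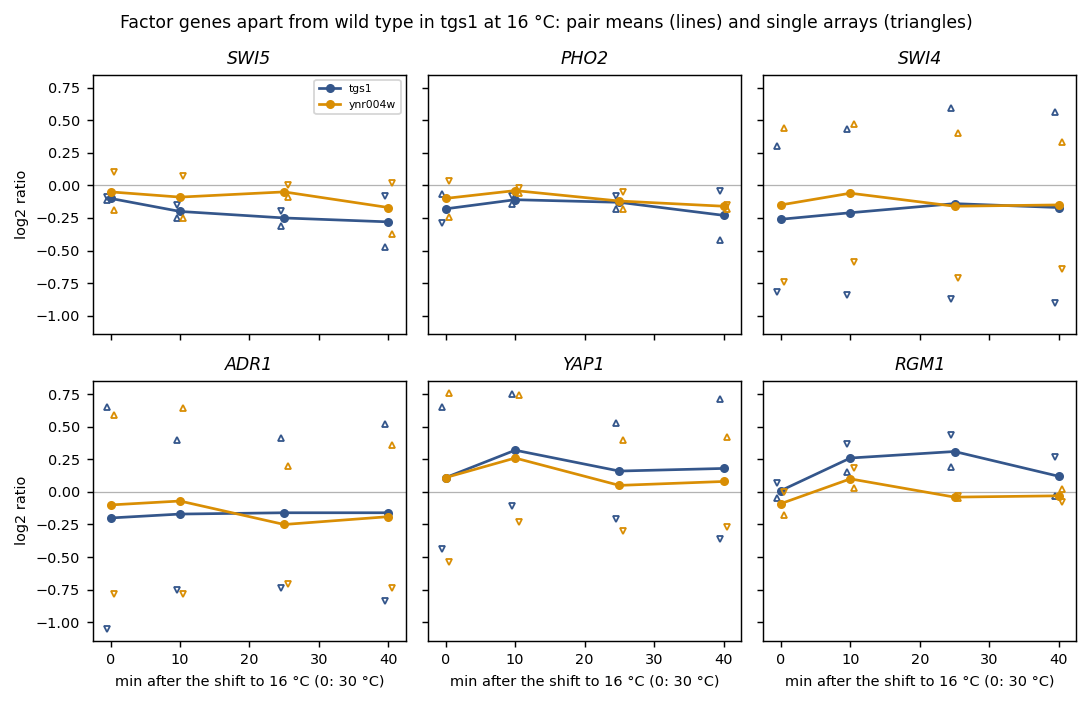
Log2 ratio (vertical axis) against minutes after transfer to 16 °C (horizontal axis, with 0 for 30 °C) for 6 factor genes in tgs1 and ynr004w, with pair means as lines and single arrays as triangles. In tgs1 all 6 arrays of SWI5 at 16 °C were between -0.47 and -0.08, while RGM1 was at 0.26, 0.31 and 0.12 at 10, 25 and 40 min.

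Among the 6 log-phase strains, 31 of 36 members differed by the F-test of the fit to pair means (72.7% of all genes), 22 with a dye term for each run code (47.5%) and 3 with 1 dye term (11.6%). The 3 were RGM1 (adjusted p = 0.00187 with 1 dye term), GCN4 (0.0022) and AFT1 (0.0356). AFT1 went from -0.46 in pci8 to 0.67 in csn12, GCN4 from -0.54 in csn9 to 0.64 in isy1, and RGM1 from -0.21 in pci8 to 1.07 in isy1.

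Each log-phase strain was also set against the mean of the 5 others, since a shift common to all mutants cancels there. In isy1, 5 members were higher by that contrast in all 3 fits: RGM1 by 1.11, GCN4 by 1.02, MCM1 by 0.71, ACA1 by 0.53 and CAD1 by 0.48 (adjusted p with 1 dye term = 5.86e-05, 8.41e-05, 0.0263, 0.0386 and 0.0171). In csn12, 3 were: YAP6 by 1.12, AFT1 by 0.82 and ROX1 by 0.72 (0.0451, 0.0132 and 0.0477). With 1 dye term 5 of 36 members thus passed in isy1, against 15.4% of all genes, and 3 of 36 in csn12, against 3.56%. ARO80 in csn12, higher by 0.74, did not pass with 1 dye term (0.118). With a dye term for each run code the members that differed from the 5 others numbered 13 in isy1 (40.5% of all genes), 9 in csn12 (11.2%), 5 in pci8 (11.2%), 3 in csn9 (7.23%), 3 in ist3 (21.5%) and 0 in YPR045C (1.53%). Among those of csn9 was YAP6, with a difference of -0.83, at -0.29 against 0.54. The mean of 0.54 includes csn12 at 1.34. Against wild type YAP6 did not pass as lower in any comparison by the pair means. Set against pci8, of the same run code, csn9 was at -0.23 in YAP6 and did not pass (adjusted p = 0.515 by limma on the pair means).

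The csn12, YPR045C and ist3 arrays share a run code, and members also differed within it. Against the mean of YPR045C and ist3, csn12 was higher by 0.91 in YAP6, by 0.79 in ARO80, by 0.73 in AFT1, by 0.71 in MIG3, by 0.63 in ROX1 and by 0.59 in ABF1. It was also higher by 0.42 in both ADR1 and INO2. Against csn12 and YPR045C, ist3 was at -0.53 in ADR1, -0.44 in ROX1, -0.43 in ARO80 and -0.42 in ABF1. The mean set against ist3 includes csn12, so these values are not separate from those of csn12. All of these passed by limma on the pair means and with a dye term for each run code. None passed with 1 dye term, where the adjusted p was between 0.0686 (AFT1 in csn12) and 0.714 (ARO80 in ist3). Against the mean of csn12 and ist3, YPR045C differed by the pair means alone, at -0.51 in AFT1, -0.45 in MET4, -0.36 in ARO80 and 0.37 in HAP1. That mean includes csn12 too. The share of all genes is not given for any of these contrasts.

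The remaining members differed from wild type by 0.35 at most in any strain's pair mean, and none passed with 1 dye term. CIN5, the YAP factor linked to salt tolerance, was lower in 6 of the comparisons with wild type, each time with arrays of both signs, and its pair means ran from -0.28 to 0.07. SKO1 was lower in 4 and ran from -0.24 to 0.16, and FHL1 was lower in 5 and ran from -0.32 to 0.06. GAL4, the activator of galactose genes, was higher in 4 and ran from -0.10 to 0.35. SFP1, an activator of ribosome production genes, was higher in 3 and ran from -0.07 to 0.32. The ranges were -0.31 to 0.12 for PHO4, the partner of PHO2, -0.22 to 0.23 for INO2, an activator of phospholipid synthesis, and -0.21 to 0.13 for RTG1, a factor of the retrograde pathway from mitochondria. YAP1 passed in csn12 and in tgs1 at 16 °C and ran from -0.18 to 0.32.

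Other genes of transcription control were counted the same way. Of 82 other DNA-binding factor genes, 37 had a probe, and by the pair means 22 passed in csn12, 24 in ist3, 17 in isy1, 14 in YPR045C, 7 in csn9 and 5 in pci8. The shares of all genes were 37.0%, 56.1%, 42.2%, 20.0%, 21.7% and 32.0% in that order. Of 72 genes for co-regulators and chromatin proteins, 37 also had a probe, and 13, 21, 12, 17, 8 and 14 passed in the same order. With 1 dye term the counts were 1, 6, 2, 4, 0 and 0 for the other factors and 1, 3, 2, 0, 0 and 1 for the co-regulators (4.68%, 8.04%, 9.57%, 1.02%, 0.305% and 1.02% of all genes). With a dye term for each run code they were 9, 21, 11, 6, 1 and 2, and 9, 16, 6, 6, 4 and 5 (19.5%, 39.2%, 26.6%, 5.60%, 10.7% and 14.4%). SWI6, the partner that SWI4 and MBP1 share, was lower in isy1 at -0.33 and higher in pci8 at 0.31. SIN3, the scaffold of a histone deacetylase complex, was higher in pci8 at 0.66 ± 0.08 in all 3 fits (adjusted p = 0.000487, 0.0334 and 0.000393). HAC1, higher in isy1, was lower in pci8 at -0.60 in all 3 fits and in csn9 at -0.40.

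Target genes of single factors were few on the array. Of 19 listed targets of the heat shock factor Hsf1, 9 had a probe, and in csn12 8 were higher and 1 lower, with HSP104, a disaggregase, at 1.21; their median was 0.63. Of all genes, 18.1% were higher and 18.8% lower in csn12. In isy1 4 of the 9 were higher and none lower, against 20.6% of all genes higher and 21.6% lower there. With 1 dye term 2 were higher (6.21% of all genes). Among the 4 was the chaperone gene SSA1 at 1.01, whose close copy SSA2 may share signal with it. Of 17 listed targets of Msn2 and Msn4, 4 had a probe. By the pair means 2 of the 4 were higher and 1 lower in csn12, where the highest was at 0.38. In isy1 2 were higher and 0 lower, and in ist3 0 were higher and 4 lower (29.2% of all genes lower). With a dye term for each run code 2 were higher and 1 lower in both csn12 (19.5% of all genes called) and isy1 (26.6%). TDH1, a glyceraldehyde phosphate dehydrogenase gene with close copies, was higher in isy1 at 2.33 and lower in csn12 at -0.84, ist3 at -0.55, tgs1 at -1.35 (30 °C) and -1.48 (16 °C) and ynr004w at -1.72 (30 °C) and -1.57 (16 °C). HSF1, MSN2 and MSN4 themselves had no named probe.

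For members with measured targets the counts were small. Of all genes, the pair means called 26.9% higher and 29.2% lower in ist3, and 20.6% and 21.6% in isy1. In csn12 these shares were 18.1% and 18.8%, and in csn9 10.6% and 11.1%. Of 13 listed targets of Swi4 and Mbp1, 3 had a probe (CLN2, POL1 and SWI4 itself), and 1 was higher and 2 were lower in ist3, with POL1 at -0.31. In csn9, where MBP1 was lower, 1 was higher, CLN2 at 0.20. With a dye term for each run code 1 of the 3 passed in ist3 and 0 in csn9. With 1 dye term 0 passed in either strain. Of 16 listed targets of the Hap complex, 4 had a probe. In ist3, where HAP2 and HAP5 were lower, the 4 were between -0.06 and 0.08 and none passed in any fit. In csn12, where HAP5 and HAP1 were lower by the pair means, COX4 and RIP1 were lower at -0.34 and -0.32. In isy1, where HAP5 was higher, RIP1 was higher at 0.42 and COX4 and QCR9 were lower at -0.18 and -0.22. The arrays of HAP5 had opposite signs in csn12 (0.29 and -0.70) and in isy1 (0.63 and -0.10). With a dye term for each run code 2 of the targets were lower in csn12, and 1 was higher and 1 lower in isy1. With 1 dye term 0 passed in either strain. Of 11 listed targets of Mig1, 4 had a probe, and in ist3 SUC2 was higher at 0.34 while GAL1, GAL3 and REG2 were lower, between -0.35 and -0.30. None of 16 listed targets of Yap1 or 13 of Aft1 had a named probe, so the higher AFT1 of csn12 has no target beside it here.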

How the data were processed

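The deposited table holds 1 log ratio per spot and array, read here as log2; per the labels, cDNA carried Cy5 or Cy3 and channel 1 held the mutant. The sources used here do not state the authors' scanner, normalization, log base or direction. After removal of each dye orientation's mean, 12 of 14 pairs correlated above 0 over all genes (not csn9 and tgs1 at 30 °C). Over the members alone most pairs correlated below 0. There r ran from -0.61 (tgs1 at 30 °C) and -0.60 (YPR045C) to 0.40 (isy1) and 0.45 (csn12). Arrays (medians -0.0282 to 0.0279) were centred, the 6 spots of each probe averaged, then the 2 arrays and a gene's probes. Names came from the platform annotation, updated through RefSeq R64 (982 of 982 matched); 79 of 1536 probes had none. limma 3.58.1 in R 4.3.3 was fitted to 14 pair means in 10 groups (4 residual degrees of freedom, prior SD 0.0648), and to single arrays with 1 dye term (13) or one for each run code (10; isy1, alone in its run, was assumed to vary like the others). Tests were 2-sided, with Benjamini-Hochberg adjustment. The fits were tested on simulated data. Members and lists (factor genes, co-regulators, targets, mating-type markers) were chosen with earlier results of these data known; every member was named, and up to 4 called genes of a list. Sequences and coordinates are not used here.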

Additional observations from a re-analysis of the deposited data

Results flagged for a closer look

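A difference among the 6 log-phase strains was found in 3 factor genes even by limma on single arrays with 1 dye term, the fit with the widest errors. From the lowest to the highest strain mean, RGM1 spanned 1.27 log2 units (pci8 to isy1), GCN4 1.18 (csn9 to isy1) and AFT1 1.12 (pci8 to csn12). The highest and lowest strain of each gene belong to different run codes, so strain and run cannot be told apart for these ranges.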

How the results depend on the processing

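The array numbers mark dye orientations, not shared cultures, so the pairing carries no biological block beyond the dye. With that number as a replicate block on the 28 single arrays, the members called fell from 23 to 3 in csn12, 14 to 0 in YPR045C, 21 to 0 in ist3, 10 to 0 in csn9, 15 to 0 in pci8, 11 to 4 in isy1, 2 to 0 in tgs1 at 30 °C, and at 16 °C from 16 to 0 in tgs1 and 7 to 0 in ynr004w. The F-test count fell from 31 to 3, and the count of a strain against the 5 others from 74 to 8. With a block for each run code, chosen after seeing the data, these counts were 11, 1, 9, 3, 7, 9, 0, 6, 0, 22 and 33 in the same order. Against the 5 others, the pair means called 23.7% of all genes in csn12, 8.35% in YPR045C, 38.3% in ist3, 19.1% in csn9, 25.7% in pci8 and 54.1% in isy1. With 1 dye term these shares were 3.56%, 0.815%, 3.36%, 0.611%, 1.32% and 15.4%. Scaling the arrays to one spread gave 9 in YPR045C, 9 in ist3, 22 in csn9, 25 in pci8 and 0 in tgs1 at 30 °C. With 1 probe per gene there were 9 in YPR045C and 4 in ynr004w at 16 °C. Against strains of the same run code alone, which isy1 lacks, 31 tests passed, or 30 with csn9 against pci8 counted once. The share of all genes is not given there, so these counts say nothing particular to the members. The same 5 strains gave 56 of the 74 against the 5 others. Centring on genes with 1 probe, the median of spots and a minimum of 4 spots moved no such count by more than 1.5 times.

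With 1 array of a strain left out and the other corrected for the mean dye effect, or with 1 time point left out at 16 °C, the members called numbered 17 to 27 in csn12, 9 to 29 in YPR045C, 15 to 29 in ist3, 7 to 26 in csn9, 11 to 24 in pci8, 11 to 26 in isy1, 0 to 19 in tgs1 and 0 to 9 in ynr004w at 30 °C, and 9 to 16 and 1 to 9 at 16 °C. The shift to 16 °C gave 0 to 20 in tgs1 and 0 to 0 in ynr004w, their contrast 0 to 2, the F-test 29 to 35 and a strain against the 5 others 60 to 94. The sign turned for 6 called values. Without array 1 and without array 2 in turn, ADR1 in csn12 was at 0.57 and -0.17, HAP2 in YPR045C at -0.52 and 0.01, AFT1 in csn9 at -0.58 and 0.06, YAP3 in csn9 at 0.11 and -0.47, RAP1 in csn9 at -0.15 and 0.61 and RAP1 in pci8 at -0.07 and 0.48. The cause was not tested. Each of the 7 genes that passed in all 3 fits kept its direction and call under the other centring, scaling, spot and probe settings, and YAP6 in csn12 ranged there from 1.12 to 1.34. Signal over background could not be read from log ratios, so what brightness limits is not known.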
